A study of Mus musculus with 46 samples.

Results

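The nuclear-encoded subunits of the mitochondrial respiratory chain and of ATP synthase were examined in cecum and liver of mice on 4 diets. Members were the genes of the Nduf, Sdh, Uqcr, Cox and Atp5 families chosen by symbol from the RefSeq name of each probe. The naming rule used no measured value, but it was set with earlier results of these data known. The arrays measured 82 such genes with 111 probes, of 20887 genes that could be named: 37 genes of complex I, 4 of complex II, 8 of complex III, 16 of complex IV and 17 of complex V. Each gene is represented by its brightest probe. Genes were placed in complexes by the stem of the symbol. Ndufa4, now regarded as a complex IV subunit, and its paralog Ndufa4l2 are therefore counted in complex I throughout. A further 21 symbols that fit the same pattern had no matching probe and are not analysed here.

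Complexes I to IV pass electrons from NADH and succinate to oxygen, and the proton gradient that results drives ATP synthase, called complex V. Complex I (NADH dehydrogenase) and complex II (succinate dehydrogenase) feed electrons in, complex III (cytochrome bc1) relays them to cytochrome c, and complex IV (cytochrome c oxidase) reduces oxygen. Cells of the large intestinal epithelium are known to oxidise butyrate made by bacteria, and hepatocytes oxidise fatty acids, so both tissues rely on this chain. Some subunits of complex IV have paralogs of tissue-restricted expression: Cox6a2, Cox7a1 and Cox8b are known as heart and skeletal muscle forms, and Cox6a1, Cox7a2 and Cox8a as the widely expressed ones. The mitochondrially encoded subunits are not among the members.

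The mice were male C57BL/6, an inbred strain, started at 12 weeks of age and fed for 8 weeks. HFD and its fiber diets derived 45% of energy from fat and LFD 10%. In HFD + inulin, 5% by weight of corn starch and 5% of cellulose were replaced by inulin, a fermentable fructose polymer, and in HFD + inul PB by 5% each of inulin carrying propionate esters and inulin carrying butyrate esters, so that both fiber diets held 10% fiber by weight on the same high-fat base. Whole cecal tissue of 5 LFD, 6 HFD, 6 HFD + inulin and 5 HFD + inul PB samples and liver of 6 samples per diet was hybridised to one-colour Agilent arrays, 1 sample an array.

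All levels are cyclic loess normalised log2 signals, in which a difference of 1 is a doubling, and they compare the same probe between arrays but not different probes with each other. A gene was called when its Benjamini-Hochberg adjusted P in LIMMA was below 0.05 over all 55681 probes. The number of arrays limits the precision. The probes of 79 genes were well above background on every cecum array and those of 78 genes on every liver array. Cox7b2 and Cox8c, forms known from testis, were above background on no array. Cox6a2 was above background on 3 of 22 cecum and 15 of 24 liver arrays, and Cox8b on 10 of 24 liver arrays. No member was saturated.

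The tissues matched their labels. On HFD, all 8 smooth muscle and 8 goblet cell markers and 11 of 13 epithelial markers were higher in cecum, and all 9 hepatocyte markers were higher in liver. A pair of liver arrays stood apart. In HFD + inul PB replicate 4 the log2 sum of 9 skeletal and heart muscle markers was 16.6, against 7.70 to 8.76 on the other 23 liver arrays, and its smooth muscle sum was the highest at 14.9. LFD replicate 4 had the highest sum of pancreas markers, 16.1, against 6.88 to 11.6 on the others, and the second highest smooth muscle sum, 14.1. Differences of Cox6a2, Cox7a1 and Cox8b in these groups are therefore given with and without both arrays. In cecum, the hepatocyte marker sum was 15.6 on the highest HFD array, with an HFD median of 13.0, and at most 13.6 on the other diets. The cecum adipocyte sum ranged from 14.2 to 17.5 on HFD, 13.1 to 16.6 on HFD + inulin, 13.6 to 14.9 on HFD + inul PB and 13.5 to 17.0 on LFD. The part of these sums in the cecum values was not tested. In whole tissue, fewer cells of a type and less RNA per cell cannot be told apart.

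The promoters of 3 complex IV genes are shown because they carry the results that follow: Cox7a1 is the only member called between diets, Cox7a2 is its widely expressed paralog, and Cox8b is, beside Cox7a1, the gene with the largest excess in cecum. Each is the 250 bases before the start in RefSeq, build GRCm38.p6, in the direction of the gene: Cox7a1 at chr7:30183921-30184170 on the plus strand, Cox7a2 at chr9:79759854-79760103 on the minus strand and Cox8b at chr7:140900447-140900696 on the minus strand. Capitals mark matches to the motifs searched for.
Cox7a1: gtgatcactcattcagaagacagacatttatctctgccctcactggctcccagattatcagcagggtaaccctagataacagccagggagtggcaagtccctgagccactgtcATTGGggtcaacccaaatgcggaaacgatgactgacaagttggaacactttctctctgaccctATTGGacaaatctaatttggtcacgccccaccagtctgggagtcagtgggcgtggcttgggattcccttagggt
Cox7a2: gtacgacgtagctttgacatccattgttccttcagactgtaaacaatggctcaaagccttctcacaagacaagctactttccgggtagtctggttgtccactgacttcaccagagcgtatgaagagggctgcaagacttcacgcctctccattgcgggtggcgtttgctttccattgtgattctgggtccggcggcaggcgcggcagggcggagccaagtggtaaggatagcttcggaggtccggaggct
Cox8b: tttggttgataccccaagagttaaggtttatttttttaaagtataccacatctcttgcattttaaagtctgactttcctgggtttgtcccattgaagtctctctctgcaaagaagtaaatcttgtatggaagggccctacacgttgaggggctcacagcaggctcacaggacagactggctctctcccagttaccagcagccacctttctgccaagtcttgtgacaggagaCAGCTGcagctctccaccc
The capitals in Cox7a1 are 2 matches to the NF-Y motif CCAAT, read here on the other strand, that begin 137 and 74 bases before the start. The capitals in Cox8b are an E-box, CAGCTG, that begins 19 bases before it. Cox7a2 held no match.

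Motifs were searched on both strands, the same length of sequence in every gene, in 73 promoters of 68 members and in all 32851 promoters listed. The core of the NRF1 motif, CGCATGCG, the site of a factor known for regulating respiratory chain genes, was in 7 member promoters (9.59%) and in 1.55% of all promoters. CCAAT was in 31 member promoters (42.5%) and in 33.8% of all. The GABP motif CCGGAAGT was in 4.11% of member promoters and 2.88% of all, CAGCTG in 8.22% and 13%, and TATAAA in 11% and 12.4%. A loose form of the MEF2 motif of muscle genes, CTA and TAG with any 4 bases between, was in 1.37% and 3.2%. Its matches need not be MEF2 sites. These motifs do not contain one another. Member promoters had a median GC content of 56%, against 52.4% over all promoters, which bears on matches to the GC-rich NRF1 motif.

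In cecum, Cox7a1 was the only one of the 82 genes to change with diet after adjustment, and it rose on HFD + inul PB. Its probe, A_51_P148612, lay at 14.19 on the lowest, 14.74 at the median and 15.03 on the highest of the 6 HFD arrays. On HFD + inulin the lowest, median and highest were 14.41, 14.91 and 15.06. The 5 HFD + inul PB arrays lay at 15.35, 15.28, 15.21, 15.25 and 15.30, a narrow band above every HFD and every HFD + inulin array. The 5 LFD arrays lay at 15.00, 14.73, 14.85, 15.45 and 14.94 and overlapped both.

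The rise of Cox7a1 on HFD + inul PB against HFD was 0.60 (SE 0.15, 95% confidence interval 0.29 to 0.92), or 1.52-fold, with an adjusted P of 0.0191 in LIMMA. It was between 0.465 and 0.723 within each of the 3 slides that held cecum arrays. Its difference was 0.15 on HFD + inulin (adjusted P = 0.668) and 0.32 on LFD (adjusted P = 0.839), neither of which passed. The direct difference between the fiber diets was 0.46 (95% confidence interval 0.14 to 0.77, unadjusted P = 0.00677, adjusted P = 0.614), so the diets were not shown to differ in Cox7a1. Of all probes, 3.51% were called higher and 3.51% lower on HFD + inul PB, so that 1 member higher (1.22% of 82) and 0 lower are smaller shares than the background in either direction.

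Cox7a1 is known as a muscle form and the cecum has a muscle wall, so muscle markers were set beside it. The log2 sum of the 8 smooth muscle markers ranged from 17.5 to 18.4 on HFD and from 17.9 to 18.6 on HFD + inul PB, ranges that overlap, with medians of 18.03 and 18.05. None of the 8 was called in LIMMA, and 0 passed an unadjusted P under 0.05. The skeletal and heart muscle sum ranged from 11.36 to 12.16 on HFD and 11.46 to 12.37 on HFD + inul PB, with no marker called and 1 of 9 never above background. The brown adipocyte sum ranged from 10.72 to 11.35 and from 10.60 to 11.22, with 2 of 4 markers never above background. Goblet cell markers did move: 6 of 8 fell on HFD + inul PB, and their sum ranged from 19.2 to 20.1 on HFD and from 18.6 to 18.9 on HFD + inul PB. Of other markers, 2 of 8 adipocyte, 3 of 8 proliferating cell and 2 of 6 B and plasma cell genes fell, and 3 of 13 epithelial genes and 1 adipocyte gene rose. The part of these shifts in the subunit values was not tested.

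**Figure D1:**
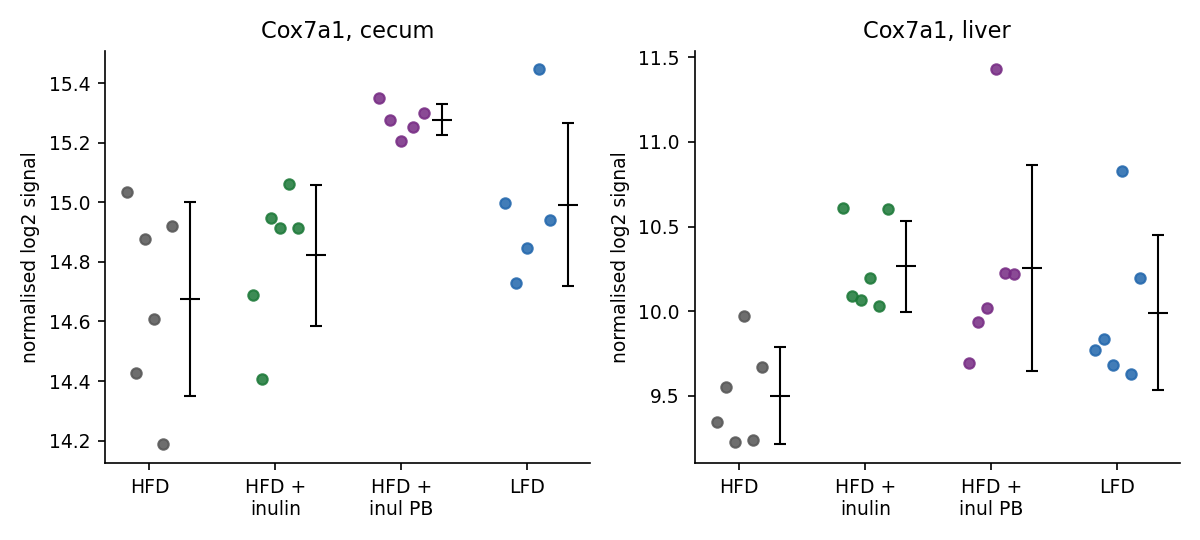
Cox7a1 in cecum (left) and liver (right), with the normalised log2 signal on the vertical axis and the diets on the horizontal axis. Each point is 1 array, the dash and bar beside it the mean and SD; the axes of the panels differ. The 5 HFD + inul PB arrays of cecum lie between 15.21 and 15.35, above every HFD array, and in liver 1 HFD + inul PB array lies at 11.43, above the rest.

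The other forms of complex IV showed no such pattern in cecum. Cox7a2, the widely expressed paralog, differed by 0.07 on HFD + inul PB (95% confidence interval -0.12 to 0.26). The subunits Cox5a and Cox5b, which sit on the matrix side, differed by -0.02 and 0.15. Cox6b2, a paralog of Cox6b1 known from testis, was 0.34 higher (adjusted P = 0.167), and Cox6b1 was 0.05 lower. Cox8b varied most of the members in cecum, from 7.38 to 10.33 on HFD and from 5.92 to 9.51 on HFD + inulin, and its differences, -1.05 on HFD + inulin (adjusted P = 0.419) and -0.76 with the esters, did not pass.

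Complex I, which takes electrons from NADH, had no called gene in cecum. On HFD + inulin, 10 of 82 genes were lower and 0 higher at unadjusted P under 0.05, beside 6.95% and 7.19% of all probes. Of the 10, 6 were in complex I by name, Ndufa4 among them. Complex I by name holds 37 of the 82 members. The 10 genes included Ndufs1, Ndufs8 and Ndufa4, Uqcrc1 and Uqcrc2 of complex III, and Atp5c1 of complex V. Among probes well above background on every array, which the members mostly are, 10.8% were lower and 12.5% higher. The median difference of the 37 complex I genes was -0.063, with 27 of 37 below 0, against -0.025 over all 82 members and 0.009 over all probes. After adjustment 0 of 82 genes were called in either direction, beside 0.842% of all probes higher and 0.735% lower.

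Ndufa10, an accessory subunit of the membrane arm of complex I, lay at 12.58, 13.11 and 13.19 on the lowest, median and highest HFD array and at 12.65, 12.82 and 13.09 on HFD + inulin. On HFD + inul PB the 5 arrays lay at 12.84, 12.73, 12.75, 12.92 and 12.58. All 5 were below every HFD array but replicate 5, at 12.58, and below the 5 LFD arrays, which lay at 13.17, 13.11, 12.94, 13.01 and 13.11. The differences from HFD were -0.20 on HFD + inulin (adjusted P = 0.378 in LIMMA) and -0.27 on HFD + inul PB (SE 0.10, adjusted P = 0.127).

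Some calls of complex I turned on cecum HFD replicate 5, and others, given below, appeared under alternatives that kept this array. Replicate 5 had the lowest value of the HFD arrays for Ndufa10, Ndufs1, Ndufs8, Uqcrc2 and Cox7a1, the highest for Ndufa4, and the highest goblet cell marker sum, 20.1. Averaged over the 79 members detected on all cecum arrays, its deviation from the mean of all cecum arrays was -0.22, against a median of 0.04 on HFD. Without it, the genes called lower on HFD + inul PB numbered 3 in place of 0, among them Ndufa10 (-0.36, adjusted P = 0.0114) and Ndufs1 (-0.31, adjusted P = 0.0174). On HFD + inulin, and for both fiber diets against LFD, 1 gene was then called lower in place of 0. The share of all probes called without replicate 5 is not given here, so these counts have no background beside them. Cox7a1 on HFD + inul PB was 0.50 without replicate 5 and remained called.

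Ndufs1, the largest core subunit of complex I and an iron-sulfur protein, lay at 14.09, 14.48 and 14.57 (lowest, median, highest) on HFD. On HFD + inulin it lay at 14.09, 14.18 and 14.37. The HFD + inul PB arrays lay at 14.12, 14.30, 14.11, 14.15 and 14.14, all below the HFD median and overlapping the HFD range through replicate 5. Its differences were -0.20 and -0.25, with an adjusted P of 0.0902 for the second. Ndufs8, another iron-sulfur subunit, differed by -0.27 and -0.22, and Ndufa4, named for complex I but now regarded as a complex IV subunit, by -0.36 and -0.35 (adjusted P = 0.185 and 0.149). The core subunits Ndufv1 and Ndufs7 differed by 0.02 and 0.01 on HFD + inul PB.

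**Figure D2:**
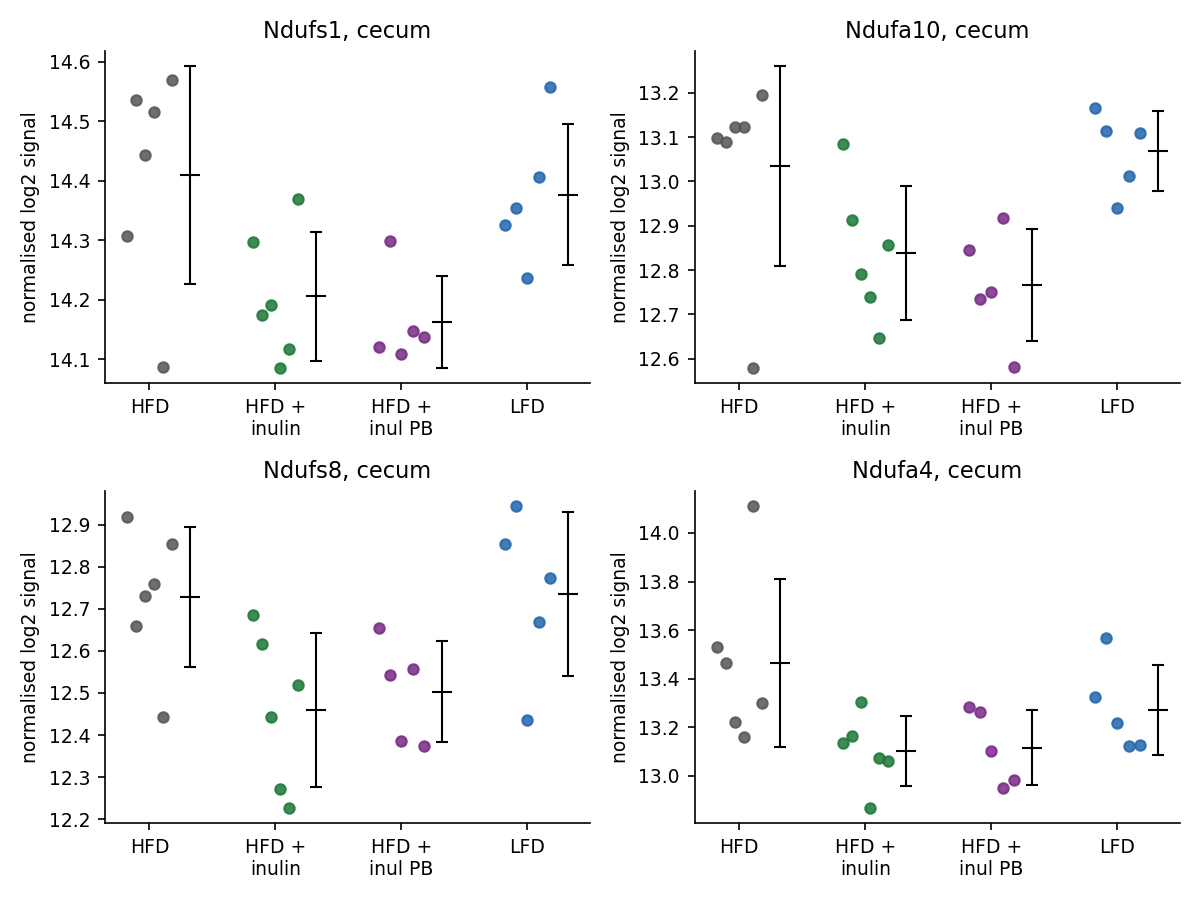
Ndufs1, Ndufa10, Ndufs8 and Ndufa4 in cecum by diet, with the normalised log2 signal on the vertical axis of each panel. Each point is 1 array, and the dash and bar are the mean and SD. Most fiber diet arrays lie low in the range of the HFD arrays for Ndufs1, Ndufa10 and Ndufs8, where the lowest HFD array is replicate 5. For Ndufa4 the same array is the highest, at 14.11.

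On HFD + inul PB, 8 members were higher and 10 lower at unadjusted P under 0.05, beside 9.94% and 10% of all probes, and 6 of the lower ones were in complex I by name. The higher ones were Cox7a1 and Cox6b2 of complex IV, Uqcrq and Uqcr10 of complex III, Atp5e and Atp5j2 of complex V, and Ndufa7 and Ndufs6 of complex I. Among probes well above background on every array these shares were 17.6% and 18.1%. Uqcrq, a small subunit of complex III, lay between 16.22 and 16.57 on HFD and at 16.61, 16.53, 16.54, 16.53 and 16.67 on HFD + inul PB. These groups overlapped, since the highest HFD array exceeded 3 of the 5. The difference was 0.20 (SE 0.06, adjusted P = 0.0761). Uqcr10, of the same complex, was also 0.20 higher (adjusted P = 0.213), with all 5 arrays above all 6 HFD arrays. The share of all probes that separated so is not given here.

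Ndufa4l2, a paralog of Ndufa4 known to be induced by hypoxia, had the largest negative difference in cecum on HFD + inul PB of the genes named for complex I. It lay at 7.38, 7.58 and 8.36 (lowest, median, highest) on HFD and at 7.09, 7.16, 6.90, 7.21 and 6.64 on HFD + inul PB, every array below every HFD array. The difference was -0.76 (SE 0.28, adjusted P = 0.119). Atp5g3, one of 3 genes for the membrane ring subunit c of ATP synthase, also lay below every HFD array (16.55 to 16.66 against 16.71 to 16.91), with a difference of -0.18 (adjusted P = 0.124). Atp5g1 and Atp5g2 encode the same mature protein and differed by -0.06 and 0.02. For Ndufa4l2 and Atp5g3, too, the share of all probes that separated so is not given here. Atp5a1 and Atp5b, of the catalytic head of ATP synthase, differed by -0.09 and -0.13. In complex II, Sdha, its flavoprotein, differed by -0.18 (unadjusted P = 0.0288) and Sdhb, its iron-sulfur protein, by 0.04.

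**Figure D3:**
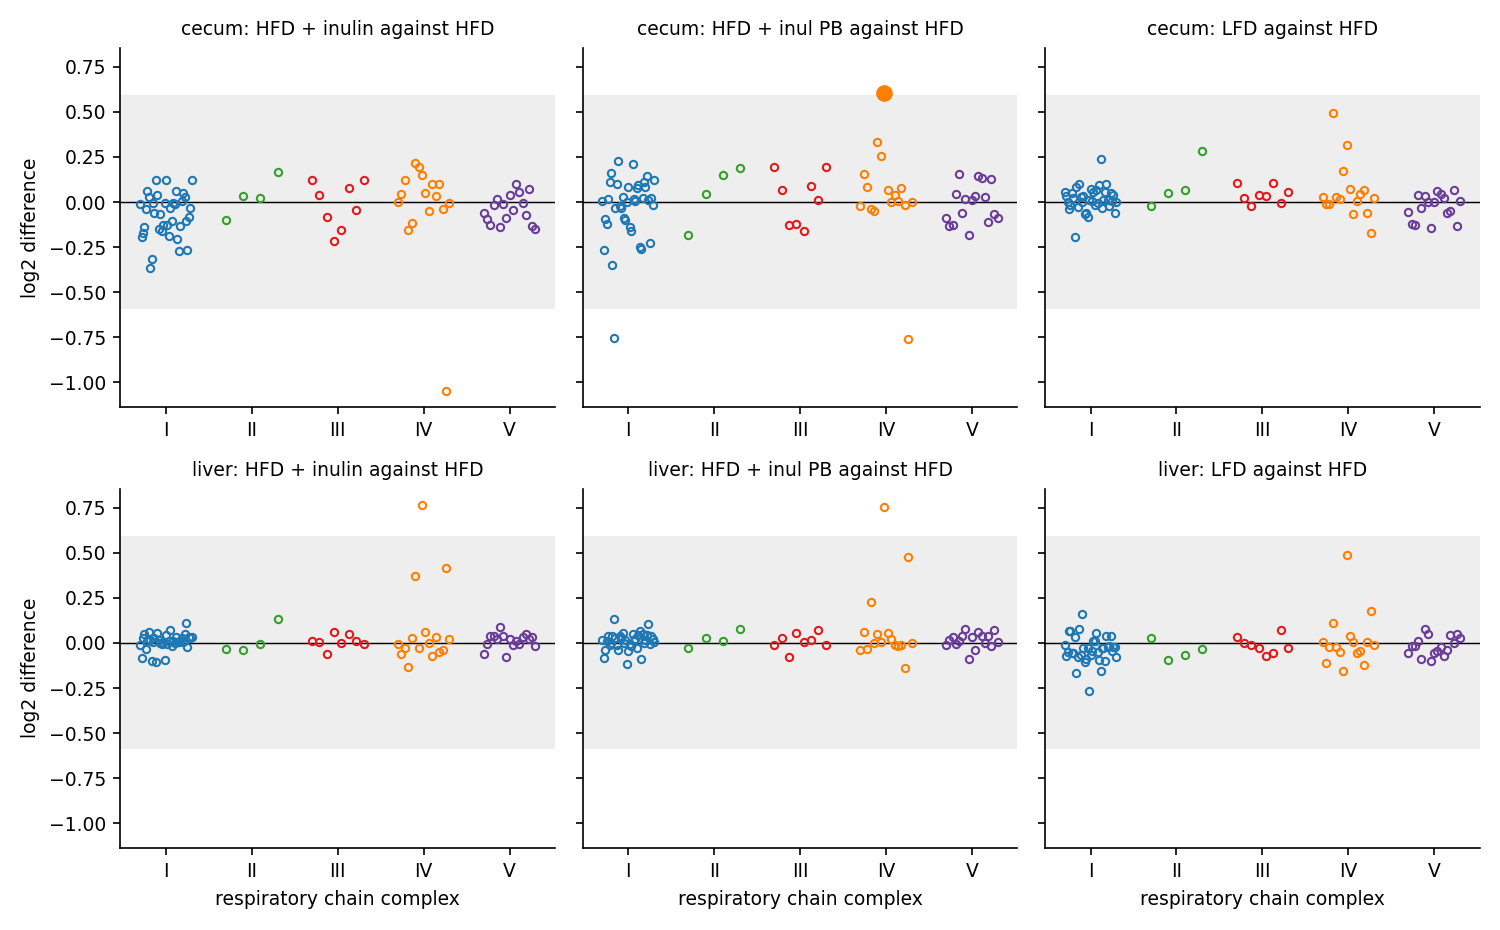
Log2 differences from HFD of all 82 genes, grouped by complex on the horizontal axis, for 3 diets in cecum (upper row) and liver (lower row). Open circles are single genes, the filled circle is the only called gene, Cox7a1 in cecum on HFD + inul PB, and the grey band spans a 1.5-fold difference in either direction. Nearly all genes lie within the band.

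No member was called between LFD and HFD in cecum. Of 82 genes, 0 were called in LIMMA, as were 0% of all probes, and 1 was higher (Cox7a1) and 1 lower (Atp5c1, -0.13) at unadjusted P under 0.05, beside 3.02% and 2.22% of all probes, followed by Atp5g3 (-0.14). The median over members was 0.019 and over all probes 0.004. Between the fiber diets 0 members were called (0.0144% of all probes higher and 0.00718% lower), and Cox7a1 and Ndufb7 (0.24) were higher on HFD + inul PB at unadjusted P under 0.05, beside 3.19% of all probes, with 0 lower, beside 3.17%; Atp5e followed (0.14). Both fiber diets against LFD gave 0 called (0.478% higher and 0.643% lower), and 10 lower and 0 higher at unadjusted P under 0.05, beside 6.81% and 5.07% of all probes, or 11.1% and 9.85% of those well above background. These included Ndufa10 (-0.27, adjusted P = 0.193, -0.31 to -0.18 within slides) and Uqcrc2, a core protein of complex III (-0.19, adjusted P = 0.214).

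The precision was sufficient to bound most members. On HFD + inul PB the 95% confidence interval of 76 of 82 genes lay within a 1.5-fold difference in either direction, and on HFD + inulin that of 78. The members varied less within groups than other bright probes, with a median residual SD of 0.124 in cecum, against 0.22 over probes well above background on every array, and of 0.083 in liver, against 0.226. Other probes of the members, 29 probes of 22 genes, gave 0 calls in any diet comparison.

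In liver no member was called on any diet. Adjusted calls were 0 of 82 for either fiber diet against HFD, as they were 0% of all probes. At unadjusted P under 0.05, Cox7a1 was the 1 gene higher on each fiber diet, and Ndufb3 the 1 lower on HFD + inul PB, beside 1.8% and 1.99% of all probes higher and lower on HFD + inulin and 1.55% and 1.57% on HFD + inul PB. Next in order of P were Ndufa7 (-0.11) and Ndufb3 (-0.09) on HFD + inulin and Cox8a (-0.14) on HFD + inul PB. On HFD + inulin the median was 0.009 over the members and 0.004 over all probes, and on HFD + inul PB 0.013 and 0.001.

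Cox7a1 had the largest difference of the members in liver too. It lay at 9.23, 9.45 and 9.97 (lowest, median, highest) on HFD and at 10.03, 10.14 and 10.61 on HFD + inulin. Every HFD + inulin array lay above every HFD array, but the share of all probes that did so is not given here. On HFD + inul PB Cox7a1 lay at 9.69, 10.12 and 11.43, overlapping HFD, and on LFD at 9.63, 9.80 and 10.83. The highest value of each of these last 2 groups was on the array that stood apart in muscle or pancreas markers.

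The liver difference of Cox7a1 from HFD was 0.76 on HFD + inulin (SE 0.24, unadjusted P = 0.00452, adjusted P = 1), 0.75 on HFD + inul PB (unadjusted P = 0.00507, adjusted P = 1) and 0.49 on LFD (adjusted P = 0.749). It was 0.53 to 0.90 within slides on HFD + inulin. Without the pair of arrays that stood apart it was 0.76 on HFD + inulin (SE 0.15, unadjusted P = 4.22e-05, adjusted P = 0.782), 0.52 on HFD + inul PB (unadjusted P = 0.00299) and 0.32 on LFD (unadjusted P = 0.0483). By the rule of a fold over 1.5 and unadjusted P under 0.01, which 0.158% of all probes passed upward on HFD + inul PB and 0.18% on HFD + inulin, Cox7a1 was higher on both, and without those arrays on HFD + inulin alone of the 2. The liver smooth muscle marker sum ranged from 11.8 to 12.6 on HFD, 11.7 to 13.3 on HFD + inulin, 12.1 to 14.9 on HFD + inul PB and 11.8 to 14.1 on LFD, with no marker called, and its part in the Cox7a1 values was not tested.

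Cox6a2 and Cox8b, the other muscle forms, were at 12.26 and 11.46 on HFD + inul PB replicate 4, against 2.98 to 7.38 and 2.49 to 9.93 on the other 23 liver arrays. The second highest Cox8b, 9.93, was on HFD + inulin replicate 4. With this array in the group, Cox8b on HFD + inul PB had a mean of 5.61 and an SD of 2.97. The fitted difference of Cox6a2 on HFD + inul PB was 0.23 with all arrays and -1.02 without the pair that stood apart, and that of Cox8b was 0.48 and -0.69 (adjusted P = 1 for all). On LFD the difference from HFD was 0.11 and -0.18 for Cox6a2 (adjusted P = 1 and 0.975) and 0.18 and -0.22 for Cox8b (adjusted P = 1 and 0.991). The direction of both genes thus turned with these arrays. On HFD + inul PB Cox6a2 was above background on 3 and Cox8b on 2 of the 6 arrays.

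Ndufb3, a small accessory subunit of the membrane arm of complex I, had the lowest unadjusted P of any member in liver. It lay at 13.94, 14.01 and 14.17 (lowest, median, highest) on HFD and at 13.67, 13.76 and 13.85 on LFD. Every LFD array lay below every HFD array, but the share of all probes that did so is not given here. On HFD + inulin and HFD + inul PB the medians of Ndufb3 were between, at 13.94 and 13.93. The LFD difference was -0.27 (SE 0.05, unadjusted P = 8.08e-05, adjusted P = 0.115 in LIMMA), and it was negative within each of 3 slides, from -0.43 to -0.13. It was -0.26 without the arrays that stood apart (adjusted P = 0.198). Leaving out HFD + inul PB replicate 3 brought the adjusted P to 0.0452, which would be a call.

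Other members in liver on LFD differed less. Calls numbered 0 of 82, beside 0.00718% of all probes higher and 0.0216% lower, and at unadjusted P under 0.05 Ndufa8 was higher (0.16) and Ndufb3 lower, beside 3.59% and 3.18% of all probes. The median member difference was -0.026 and that of complex I -0.03, with 27 of 37 genes below 0. Both fiber diets against LFD gave 0 calls (0.0216% and 0.0377% of all probes), with 5 higher and 0 lower at unadjusted P under 0.05, beside 2.94% and 4.28% of all probes: Ndufb3 (0.16), Ndufs3, Ndufb10, Atp5k and Uqcrfs1. Between the fiber diets 0 of 82 passed either threshold in LIMMA, beside 1.18% and 1.11% of all probes higher and lower at unadjusted P under 0.05, and the lowest P were those of Ndufa13 (0.07), Cox5b (0.12) and Ndufb4 (-0.09). The confidence interval of 78 or 79 of 82 genes lay within a 1.5-fold difference in each liver comparison.

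Whether a fiber diet acted differently on a member in cecum than in liver was tested as an interaction in one model of all 46 arrays, and 0 of 82 genes passed. Of all probes, 0.128% and 0.149% did so for HFD + inulin (higher and lower in cecum) and 0.984% and 1.02% for HFD + inul PB. Members at unadjusted P under 0.05 were 3 higher and 6 lower for HFD + inulin, beside 4.23% and 5.6% of all probes, and 3 and 3 for HFD + inul PB, beside 5.97% and 7.33%. Uqcrq (0.24, adjusted P = 0.121), Ndufa4l2 (-0.91, adjusted P = 0.172) and Ndufa4 (-0.38, adjusted P = 0.221) were among the last. For Cox7a1 the interaction was -0.58 for HFD + inulin (95% confidence interval -1.17 to 0.004) and -0.08 for HFD + inul PB (-0.68 to 0.52), the second turning to 0.15 without liver HFD + inul PB replicate 4.

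The tissues themselves differed far more than the diets. On HFD, 21 of 82 genes were higher in cecum and 31 higher in liver, beside 24.4% of all probes higher and 22.6% lower in cecum. Among probes well above background on every array, which the members mostly are, these shares were 37.1% and 38.4%. The split differed by complex: 3 higher and 22 lower of 37 genes in complex I, 0 and 3 of 4 in complex II, 4 and 2 of 8 in complex III, 9 and 2 of 16 in complex IV and 5 and 2 of 17 in complex V. Ndufa4 and Ndufa4l2, placed in complex I by symbol, are among its 22 lower genes. Each slide held 1 tissue, so tissue and slide cannot be told apart. The split also depended on scaling: relative to liver, the median of all probes moved from -0.016 to -0.49 when arrays were scaled to the 75th percentile, and the counts then became 6 higher and 58 lower.

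The values of all members moved with the scaling, but some kept their call. Over 6 ways of scaling or background treatment, 6 genes were higher in cecum in all, namely Cox7a1, Cox8b, Cox6b2, Cox5a, Atp5o and Ndufa11. The 8 lower in all were Ndufa4, Ndufa4l2, Ndufb3, Ndufb4, Ndufb9, Ndufb11, Ndufs5 and Uqcrq, 7 of them from complex I by name. The median of all probes moved too, from -0.493 to 0.146 over the 6 ways. The share of all probes called in all 6 is not given here. For 48 of the 82 genes the sign turned with the scaling, so no direction between the tissues can be read for them.

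Cox7a1 had the largest tissue difference of the members. It ranged from 13.99 to 14.83 on the 6 cecum HFD arrays and from 9.43 to 10.18 on the 6 liver HFD arrays, with no overlap. Cecum lay above liver without overlap on HFD for 18% of all probes. Cox7a1 was 27.6-fold higher in cecum (log2 difference 4.79, SE 0.20, adjusted P = 2.82e-23 in LIMMA), and 4.53 to 5.06 over the 6 scalings. Its paralog Cox7a2 differed by -0.09 (adjusted P = 0.34), with a sign that turned between scalings. The smooth muscle markers moved the same way, all 8 higher in cecum with a median log2 difference of 6.30, and their part in the Cox7a1 difference was not tested.

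Cox8b ranged from 7.12 to 10.10 in cecum and from 4.44 to 6.68 in liver, where it was above background on 2 of 6 arrays. It was 8.52-fold higher in cecum (log2 difference 3.09, SE 0.97, adjusted P = 0.00677), without overlap. The log2 difference was 1.77 to 3.09 over the 6 scalings, the reported value being the highest, and 4.21 with scan day as a block, and it was called in each. Cox6a2, the third muscle form, was not above background on any cecum HFD array and on 4 of 6 liver arrays. On the reported scaling it was 2.43-fold higher in liver, with cecum signals raised to the lowest level among probes well above background. Liver signals not above background were taken as measured. In LIMMA its adjusted P was 0.0403, but this call was not stable. It was lost under 2 of the 6 scalings, with slide or scan day as a block, and without any 1 of cecum HFD replicates 1 to 4 or liver HFD replicates 3, 4 and 6 (adjusted P up to 0.106). The log2 difference was -2.03 to -0.58 over the scalings, and the smallest of these is under 2.43-fold. The widely expressed Cox8a was 0.38 higher in cecum and was called so under 5 of the 6 scalings, and the sign of Cox6a1 turned.

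Among the genes lower in cecum, Ndufa4 ranged from 12.99 to 13.99 in cecum and from 15.23 to 15.48 in liver. The log2 difference was -2.00 (SE 0.11), and -2.30 to -1.64 over the scalings. Uqcrq ranged from 16.16 to 16.46 and from 17.07 to 17.28 (log2 difference -0.90, SE 0.06), and Ndufb11, an accessory subunit of the membrane arm, from 14.99 to 15.45 and from 15.87 to 16.00 (log2 difference -0.85, SE 0.06). Ndufa4l2 differed by -1.22. None of the 4 overlapped between tissues. Liver lay above cecum without overlap on HFD for 16.1% of all probes.

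Among the genes higher in cecum, Cox5a ranged from 16.70 to 17.06 in cecum and from 16.22 to 16.46 in liver (log2 difference 0.63, SE 0.06). Atp5o, the subunit that joins the stalk of ATP synthase to its catalytic head, ranged from 14.59 to 15.16 and from 13.99 to 14.27 (0.69, SE 0.07). Cox6b2 differed by 0.92. Cox5b was 0.54 higher, and kept its sign. For Atp5a1 and Atp5b, of the catalytic head of ATP synthase, the sign turned, with a range of -0.16 to 0.47 and of -0.24 to 0.61 over the scalings.

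**Figure D4:**
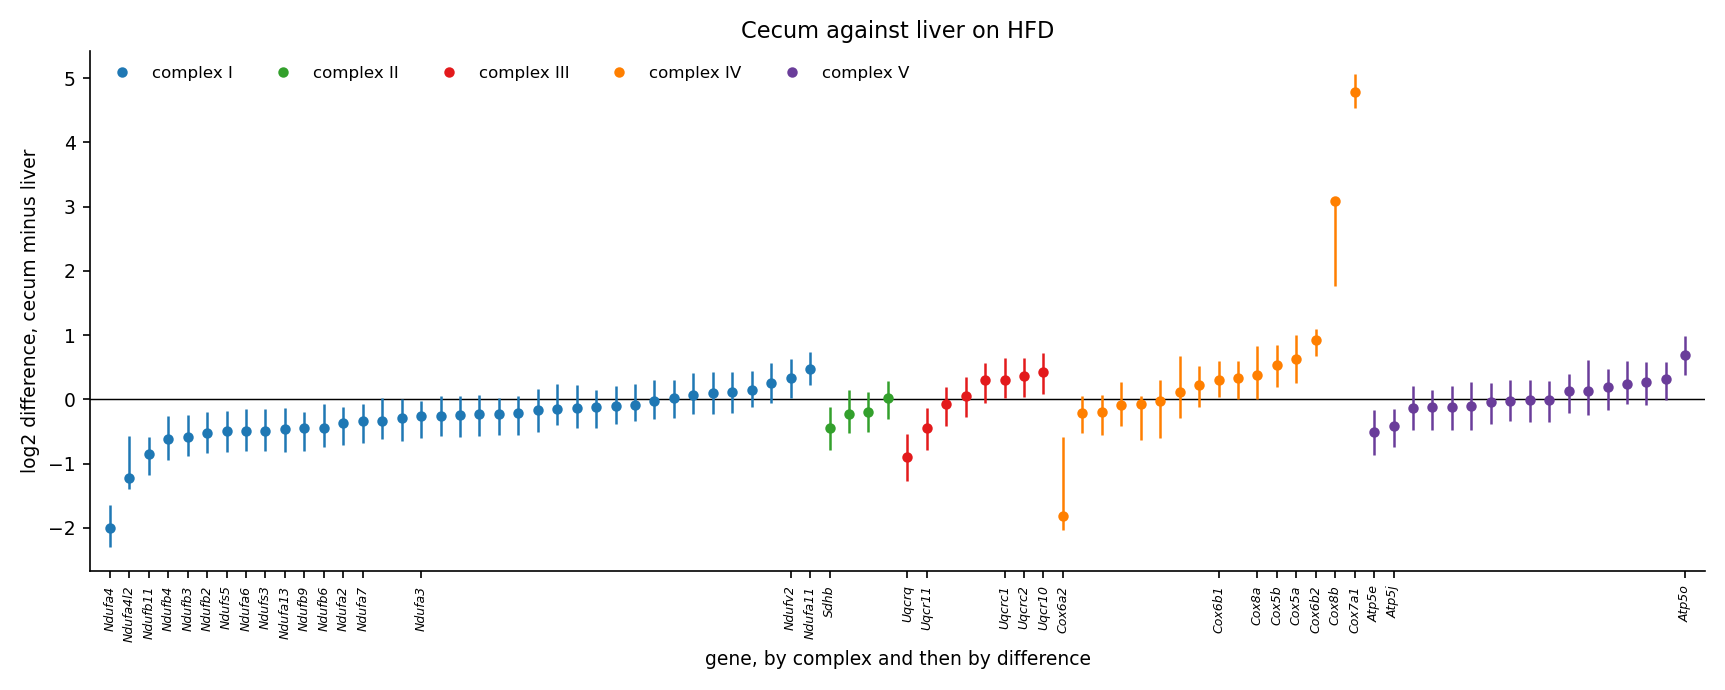
Log2 difference between cecum and liver on HFD for each of the 82 genes, ordered by complex and then by difference along the horizontal axis. Points are the reported difference and vertical lines its range over 6 ways of scaling or background treatment. Cox7a1 and Cox8b of complex IV lie far above 0, Ndufa4 lies near -2.00, and for 48 genes the line crosses 0. Names are given for the genes whose line does not cross 0.

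Genes that assemble, feed or regulate the chain were counted for the same comparisons. In cecum on HFD + inul PB, 2 of 42 assembly factors rose and 2 fell, beside 3.51% of all probes in each direction, or 7.21% and 7.34% of those well above background. Sco1 and Sco2, paired copper chaperones of cytochrome c oxidase, moved in opposite directions: Sco1 rose by 0.47 (adjusted P = 0.0229) and Sco2 fell by 0.36 (adjusted P = 0.0206). Coa7, an assembly factor of complex IV, fell by 0.52 (adjusted P = 0.00759), and Cox14, also of complex IV, rose by 0.28 (adjusted P = 0.0421). On HFD + inulin 0 of 42 were called. Against LFD 1, Sco2, fell (-0.36, adjusted P = 0.0375), beside 0.643% of all probes, or 1.34% of those well above background.

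In the citric acid cycle, which supplies NADH and succinate, 1 of 14 genes fell on each fiber diet. Of all probes, 0.735% fell with plain inulin and 3.51% with the esters, or 1.27% and 7.34% of those well above background. The cycle gene was Idh3a, the catalytic subunit of NAD-dependent isocitrate dehydrogenase. It differed by -0.36 on HFD + inul PB (adjusted P = 0.0232), -0.39 on HFD + inulin (adjusted P = 0.0325) and -0.41 for both against LFD (adjusted P = 0.0201). The median over the 14 genes was -0.188 with plain inulin and -0.139 with the esters, beside -0.025 and 0.013 over the 82 subunits. The 2 comparisons with HFD share the HFD arrays.

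Of 20 fatty acid oxidation and ketogenesis genes, Acss1, the mitochondrial acetyl-CoA synthetase, rose with plain inulin (0.61, adjusted P = 0.00536) and with the esters (0.68, adjusted P = 0.000917). On HFD + inul PB Etfb, a subunit of the electron transfer flavoprotein, also rose (0.37, adjusted P = 0.0219), and Acsm3, a mitochondrial acyl-CoA synthetase of medium-chain acids, fell by 1.18 (adjusted P = 0.00119). Among all probes, 0.842% rose with plain inulin, and 3.51% rose and 3.51% fell with the esters. Among those well above background the shares were 1.77%, 7.21% and 7.34%. Of 78 mitochondrial ribosome genes, 3 rose and 5 fell on HFD + inul PB. Beside them, 3.51% of all probes did so in each direction, or 7.21% and 7.34% of those well above background. The called ribosome genes were led by Mrpl3 (-0.34, adjusted P = 0.00698), Mrps22 (-0.42, adjusted P = 0.0115) and Mrpl14 (0.25, adjusted P = 0.0219). None of 20 import and carrier genes, 16 regulators of mitochondrial biogenesis or 6 subunits whose symbols lay outside the naming rule, such as Cox4i1 and Cyc1 was called on any diet in LIMMA. At unadjusted P under 0.05 on HFD + inul PB, 1 import and carrier gene was higher and 4 lower, 1 regulator was higher and 4 lower, and 0 of the 6 outside subunits passed. By this threshold 9.94% of all probes were higher and 10% lower, or 17.6% and 18.1% of those well above background. In liver 0 genes of any of these lists were called, with 8 of the 20 fatty acid oxidation genes lower on LFD than on HFD at unadjusted P under 0.05 (median -0.179), beside 3.18% of all probes, or 5.3% of those well above background.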

How the data were processed

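Gene expression was measured in cecum (22 arrays) and liver (24 arrays) with one-colour arrays on 6 slides, each of 1 tissue. The authors deposited scanner output of Agilent Feature Extraction, a linear intensity per spot with local background subtracted and spatial trends removed but no normalisation between arrays, and a table of their processed values on a log2 scale. Samples were grouped by their labels, no deposited sample was left out, and replicates are separately labelled samples of 1 diet. The authors state that they had removed 1 cecum HFD + inul PB array as an outlier and 1 cecum LFD sample for technical reasons. The labels do not name the animals or pair cecum and liver of 1 mouse, so P-values measure the spread between these samples.

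Control spots and spots marked as outliers were left out. Processed signals were taken to log2 and put through cyclic loess within each tissue (span 0.7), spots of a probe were averaged, and LIMMA (limma 3.58.1, R 4.3.3) fitted all 4 diets of a tissue, with moderated errors. Calls used a Benjamini-Hochberg adjusted P under 0.05 over 55681 probes. Tissue and interaction terms came from a joint fit to all 46 arrays after a common normalisation. The fits were tested on simulated data. Probes were named through their accessions with a RefSeq table of GRCm38.p6 (27509 of 55681 matched), which gave no positions of probes, as the array design used another build. The members and gene lists were chosen with earlier results of these data known. The genes named are those called in a comparison or with the 3 lowest P where none was called, core subunits, isoform pairs and, per list, up to 3 called genes, beside genes whose arrays did not overlap, which were picked after their values were seen. Between diets, the share of all probes whose arrays did not overlap is not given here. For a probe above background on no array of a group, a limited fold is given. It was computed against the lowest signal among probes well above background, on the reported scaling only.

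Same-numbered liver samples of HFD + inul PB and HFD deviated together with r over 0.1 in all 6 pairs (0.103 to 0.594), which held in every pair for no other groups compared. Alternatives were other normalisations (75th percentile, quantile, cyclic loess over both tissues), normexp background correction with an offset of 50 on median spot and background signals, keeping outlier spots, the authors' processed values, only probes well above background, slide, scan day or replicate number as a block, only the groups compared, a fold over 1.5 with unadjusted P under 0.01, and each array left out. Leaving out the pair of liver arrays rich in muscle or pancreas markers was added after the data were seen. Values of some counted genes are not reported here.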

Additional observations from a re-analysis of the deposited data

Results flagged for a closer look

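The highest or lowest array of a group was tested against the others (Dixon's test at 95%) in 100 groups of member values, of which 11 were marked. Chance marks about 1 in 20 groups. The marked arrays were far from the rest of their own diet.

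In cecum these were HFD replicate 1 for Atp5e, high at 15.97, HFD replicate 5 for Ndufa10, low at 12.58, and for Uqcrc2, low at 15.19, and HFD + inulin replicate 3 for Atp5g3, high at 17.00. In liver, HFD + inul PB replicate 4 was high for all 3 muscle forms of complex IV, Cox6a2 at 12.26, Cox7a1 at 11.43 and Cox8b at 11.46. HFD + inulin replicate 4 was high for Cox8b at 9.93. HFD + inul PB replicate 2 was low for Cox8a at 16.07, HFD + inul PB replicate 3 was low for Ndufs3 at 14.87, and LFD replicate 5 was high for Ndufa13 at 16.73. No interaction of tissue and fiber diet was called for any member in LIMMA.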

How the results depend on the processing

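Cox7a1 in cecum on HFD + inul PB was called under every alternative run, with an adjusted P of 0.00824 to 0.0473. With the replicate block its difference was 0.64 (adjusted P = 0.0206), and the replicate block changed no count of called members in any diet comparison of either tissue.

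Other counts moved in cecum. Genes higher on HFD + inul PB numbered 2 with quantile normalisation, with cyclic loess over both tissues and with only probes well above background, the added gene being Uqcrq. Genes lower on HFD + inul PB numbered 1 with normexp background correction (Ndufa4), with slide or scan day as a block and with only the groups compared (Ndufa4l2), and 2 with only probes well above background. Both fiber diets against LFD gave 1 lower gene with only probes well above background and with only the groups compared. By the rule of a fold over 1.5 and unadjusted P under 0.01, 1 liver gene, Cox7a1, was higher on each fiber diet, and without the pair of liver arrays rich in muscle or pancreas markers 1 on HFD + inulin. In these the cause was not tested.

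Leaving out 1 array at a time gave 1 to 2 genes higher and 0 to 3 lower in cecum on HFD + inul PB, 0 to 1 lower on HFD + inulin and 0 to 1 lower on both fiber diets against LFD. The largest counts came without HFD replicate 1 for the first, where Uqcrq was added, and without HFD replicate 5 for the others. Without HFD + inulin replicate 5, Ndufa4l2 was called lower on HFD + inul PB. In liver 0 to 1 genes were lower on LFD, and for the tissues 20 to 23 were higher and 27 to 33 lower. Uncalled Cox7a1 differences changed sign: in cecum, both fiber diets against LFD ranged from -0.0075 to 0.17, the HFD + inul PB interaction from -0.19 to 0.15 and liver HFD + inul PB against HFD + inulin from -0.25 to 0.10.

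Between cecum and liver, 5 genes were higher and 5 lower by the fold rule, which 19.4% and 17.9% of all probes passed. Called genes numbered 6 and 58 scaled to the 75th percentile, 39 and 15 with quantile normalisation and 42 and 10 in the authors' processed values. In the same order the median of all probes was -0.493, -0.036 and 0.146. The shares of all probes called under these scalings are not given here. Cox6a1 turned to -0.29 scaled to the 75th percentile and -0.052 with normexp background correction, Cox7a2l to -7e-04 at the 75th percentile, and Cox7a2 to 0.18 with quantile normalisation and 0.27 in the authors' processed values.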
